A study of Mus musculus with 28 samples.

Results

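Transcripts of 8 genes of the Wnt pathway were followed in sorted mouse thyroid and salivary gland cells: 6 genes for secreted inhibitors (Sfrp1, Sfrp2, Sfrp4, Dkk2, Dkk3 and Wif1) and 2 for effectors (Ctnnb1 and Tcf7l2). They were a named list, matched by Ensembl identifier and mouse symbol, and all 8 were found among the 47643 genes of the count tables. The tables covered 28 libraries of 3′ tag sequencing made from polyadenylated RNA of sorted cells. All libraries came from H2B-GFP mice, which carry a fusion of histone H2B with green fluorescent protein, and each gland was sorted into a GFP+ and a GFP- fraction. Thyroid libraries came from mice of 3 months (4 GFP+, 4 GFP-), 6 months (4 GFP+, 4 GFP-) and 9 months (3 GFP+, 3 GFP-). Salivary gland libraries came from mice of 9 months (3 GFP+, 3 GFP-). The sources used here give no promoter for the transgene, no labelling schedule and no number of animals behind a library. The series title places the work under quiescent cells in the upkeep of the thyroid gland. Where labelling has stopped, cells that divide dilute the fluorescent histone, so that GFP can mark cells that have divided little. Without a labelling schedule, it is not known whether GFP has that meaning here. The comparison of the GFP fractions asks which genes differ between GFP+ and GFP- cells.

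Wnt proteins are secreted signals that bind Frizzled receptors with LRP co-receptors at the cell surface. Binding halts the destruction complex that otherwise degrades β-catenin, the product of Ctnnb1, which then enters the nucleus and activates genes together with TCF/LEF factors such as the product of Tcf7l2. Secreted frizzled-related proteins (Sfrp1, Sfrp2, Sfrp4) resemble the Wnt-binding part of the receptor and can bind Wnt proteins, Dkk2 binds the LRP co-receptors, and Wif1 binds Wnt proteins directly. Dkk3 is related to the Dickkopf proteins by sequence, and its action on Wnt signalling is less settled. Many of these inhibitors are known products of fibroblasts and other stromal cells.

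Promoter windows, 250 bases before to 50 after a gene start, were taken from RefSeq on build GRCm38.p6 to show where the core letters bound by TCF/LEF factors, CTTTG, occur at the members. Windows were found for 5 of the 8 members, 7 windows in all. On either strand CTTTG occurred in 4 of these 7 windows and in 53.9% of 32851 windows of all genes, so its presence is common. Of the 4 windows with a match, 3 are shown, from an inhibitor of each of 2 families and from the effector Tcf7l2, all on the plus strand, with the match in capitals (CTTTG, or CAAAG where it lies on the other strand).
Dkk2 promoter, chr3:132085042-132085341: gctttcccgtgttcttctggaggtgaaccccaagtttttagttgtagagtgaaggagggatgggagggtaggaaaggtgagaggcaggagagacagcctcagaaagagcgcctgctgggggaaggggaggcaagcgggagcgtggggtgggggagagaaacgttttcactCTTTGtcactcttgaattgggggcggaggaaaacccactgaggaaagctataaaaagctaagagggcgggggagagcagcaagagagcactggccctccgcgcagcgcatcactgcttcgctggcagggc
Wif1 promoter, chr10:121033754-121034053: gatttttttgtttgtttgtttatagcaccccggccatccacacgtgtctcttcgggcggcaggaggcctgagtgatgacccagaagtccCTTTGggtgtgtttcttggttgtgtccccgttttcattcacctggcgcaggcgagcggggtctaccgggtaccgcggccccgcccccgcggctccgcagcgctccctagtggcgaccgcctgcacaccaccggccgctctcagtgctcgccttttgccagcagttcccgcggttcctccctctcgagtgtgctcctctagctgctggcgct
Tcf7l2 promoter, chr19:55741560-55741859: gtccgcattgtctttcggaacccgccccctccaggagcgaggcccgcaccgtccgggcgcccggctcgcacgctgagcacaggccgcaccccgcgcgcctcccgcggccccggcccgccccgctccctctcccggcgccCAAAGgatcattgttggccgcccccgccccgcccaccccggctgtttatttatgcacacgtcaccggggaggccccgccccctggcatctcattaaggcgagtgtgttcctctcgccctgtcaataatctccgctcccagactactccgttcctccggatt
The matches began 80 bases before the gene start in Dkk2 (position -80), 161 before it in Wif1 (-161) and 111 before it in this Tcf7l2 window (-111). The 2 windows of Ctnnb1 and the window of Sfrp2 held no match. A match is a run of letters and was not tested as a binding site.

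Reads in genes ran between 507 and 209091 per library, and 6 libraries had under 10000. A gene with 0 reads could therefore lie anywhere below 14.3 CPM (counts scaled to 1000000 reads in genes) in the deepest library and below 5917 CPM in the shallowest, taking 3 reads as the limit. Of the shallow libraries, 3 were thyroid GFP+: replicates 1 and 2 at 3 months and replicate 4 at 6 months. The members' reads were few: 21 (Wif1) to 976 (Ctnnb1) over all libraries, and 130 for Sfrp1. Only Sfrp1, Sfrp4, Ctnnb1 and Tcf7l2 passed the filter on low counts in the thyroid fit. Intervals on pooled reads are exact 95% Poisson or binomial intervals and cover counting error only. Thyroglobulin and other follicular cell markers summed to 2204 CPM in pooled thyroid GFP+ and 5624 CPM in thyroid GFP- libraries. In salivary GFP+ and GFP- libraries they summed to 10.9 and 59.7 CPM. Salivary acinar and duct markers summed to 29470 and 62660 CPM there, against 303.5 and 143.3 CPM in thyroid GFP+ and GFP- libraries. Pooled over ages, parathyroid markers (28860 and 47870 CPM) stood above follicular ones in thyroid GFP+ and GFP- libraries. So did C cell markers (7676 and 15490 CPM). In thyroid GFP+ libraries of 3 months follicular markers stood higher, at 4183 CPM, against 3929 (parathyroid) and 1224 CPM (C cell). Both the parathyroid and the C cell list include Chga, whose mean log2 CPM (13.6) was above that of Calca (10.9) and Tg (12.3). The comparison without Chga was not made. In bulk libraries, fewer cells of a type and less RNA per cell cannot be told apart.

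**Figure D1:**
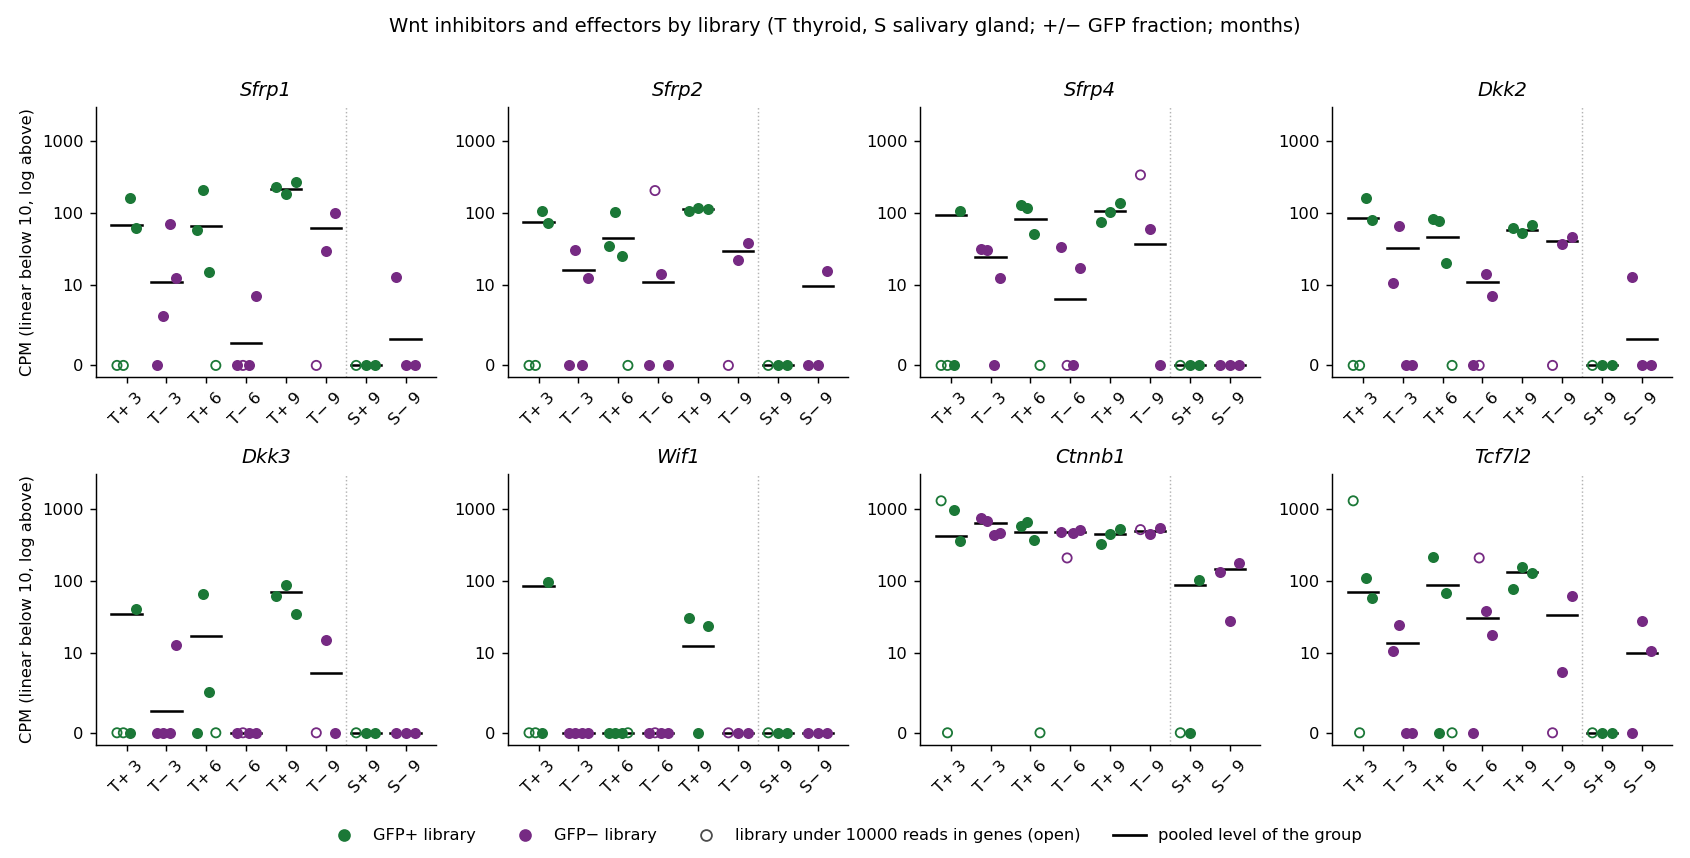
Level of each of the 8 genes in each library in CPM (vertical axis, linear below 10 and logarithmic above), by gland, GFP fraction and month (horizontal axis). Points are libraries, open points are those under 10000 reads in genes, and black bars are pooled levels. Sfrp1 lies at 182 to 267 CPM in the 9-month thyroid GFP+ libraries and at 0 to 99.8 CPM in the GFP- ones.

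Averaged over the 3 ages, Sfrp1, Sfrp4 and Tcf7l2 were higher in thyroid GFP+ than in GFP- libraries, and Ctnnb1 did not pass the test. These were 3 of the 4 members tested. Of all 1900 genes tested, 20.2% were called in this comparison, 11.4% of them higher and 8.79% lower as shares of all genes. The fits used edgeR's quasi-likelihood test on all 22 thyroid libraries, with Benjamini-Hochberg adjustment over the 1900 genes. The median log2 fold change of all genes was -0.08.

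Sfrp1, a secreted antagonist that binds Wnt proteins, showed the largest difference of the 4. At 3 months it stood at 0, 0, 161 and 62.9 CPM in the GFP+ libraries, against 0, 6.12, 71.5 and 12.8 CPM in the GFP- libraries. At 6 months it stood at 58.8, 209.7, 15.3 and 0 CPM in the GFP+ libraries, against 0, 0, 0 and 8.66 CPM in the GFP- libraries. At 9 months it stood at 230.4, 182 and 267 CPM in the GFP+ libraries, against 0, 30.2 and 99.8 CPM in the GFP- libraries. The groups overlapped at 3 and 6 months, where the GFP+ zeros came from the shallow libraries, and did not overlap at 9 months. The 9-month GFP- zero came from replicate 1, with 5884 reads and a limit of 509.9 CPM for 0 reads, which lies above every 9-month GFP+ value of Sfrp1. Over the 3 ages the log2 fold change was 2.59 (SE 0.587, adjusted p = 0.000145, edgeR). Pooled reads gave 107 in GFP+ and 22 in GFP- libraries, a ratio of levels of 5.48 (95% interval 3.44 to 9.10).

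Sfrp4, of the same family, stood at 0, 0, 0 and 108.6 CPM in the GFP+ libraries at 3 months, against 32.2, 30.6, 0 and 12.8 CPM in the GFP- libraries. At 6 months it stood at 129.3, 117.9, 51.2 and 0 CPM in the GFP+ libraries, against 33.5, 0, 0 and 17.3 CPM in the GFP- libraries. At the latest age it stood at 76.8, 105.7 and 139.5 CPM in the GFP+ libraries, against 340, 60.3 and 0 CPM in the GFP- libraries. The GFP- value of 340 CPM came from 2 reads in a library of 5884. The log2 fold change over the 3 ages was 1.68 (SE 0.557, adjusted p = 0.0160, edgeR), and pooled reads gave a ratio of 4.30 (2.66 to 7.22). The call did not hold without 1 library. Leaving out GFP+ replicate 4 at 3 months meant that all 3 remaining GFP+ libraries of that age had 0 reads, and the fitted log2 fold change was -0.08 (adjusted p = 0.863). The pooled ratio without it was 4.15 (2.53 to 7.07). Leaving out GFP- replicate 3 of the 6-month group (adjusted p = 0.0764) or of the 9-month group (adjusted p = 0.0721) also ended the Sfrp4 call. So did DESeq2 (adjusted p = 0.273) and an edgeR fit without the filter on low counts (adjusted p = 0.0743).

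Sfrp2, the remaining family member, was below the filter. It reached 0 to 107 CPM in GFP+ libraries and 0 to 30.6 CPM in GFP- libraries at 3 months. At 6 months the range was 0 to 104.8 CPM in GFP+ libraries and 0 to 206 CPM in GFP- libraries, the last value being 1 read. The 9-month range was 107.5 to 117.5 CPM in GFP+ libraries and 0 to 38.4 CPM in GFP- libraries, with no overlap. Pooled reads numbered 68 in GFP+ and 18 in GFP- libraries, a ratio of 4.25 (2.50 to 7.60). A fit without a filter covered 16525 genes and called 2.55% of them; its use for members below the filter was chosen after their values were seen. There Sfrp2 had a log2 fold change of 1.75 (SE 0.587, adjusted p = 0.0832), and it passed without the libraries under 10000 reads (2.08, adjusted p = 0.0300).

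Dkk3, a protein of the Dickkopf family, was found mainly in GFP+ libraries. It stood at 0, 0, 0 and 40.0 CPM in GFP+ libraries at 3 months, against 0, 0, 0 and 12.8 CPM in GFP- libraries. At 6 months it stood at 0, 65.5, 5.12 and 0 CPM in GFP+ libraries, against 0 in every GFP- library. The 9-month libraries had 61.4, 88.1 and 34.9 CPM in GFP+ libraries, against 0, 15.1 and 0 CPM in GFP- libraries. The groups overlapped at 3 and 6 months and were apart at 9 months. Pooled reads were 35 in GFP+ and 3 in GFP- libraries, a ratio of 13.1 (4.14 to 66.8). In the fit without a filter the log2 fold change was 2.97 (SE 0.796, adjusted p = 0.0144, edgeR), and with Sfrp1 it was 1 of 2 members called there. The Dkk3 call did not hold when GFP+ replicate 4 at 3 months was left out (1.67, adjusted p = 0.9998), nor without the 6-month GFP+ replicate 2 (2.30, adjusted p = 0.238) or the 9-month GFP- replicate 3 (2.73, adjusted p = 0.0504).

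Dkk2, an antagonist that acts on the LRP co-receptors, differed less. It spanned 0 to 161 CPM in GFP+ libraries and 0 to 67.3 CPM in GFP- libraries at 3 months, and 0 to 82.3 CPM in GFP+ libraries and 0 to 14.4 CPM in GFP- libraries at 6 months. By 9 months it stood at 61.4, 52.9 and 69.8 CPM in GFP+ libraries, against 0, 37.7 and 46.1 CPM in GFP- libraries, without overlap. Pooled reads were 53 in GFP+ and 27 in GFP- libraries, a ratio of 2.21 (1.37 to 3.65). It did not pass the fit without a filter (log2 fold change 1.20, SE 0.57, adjusted p = 0.358).

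Wif1, which binds Wnt proteins directly, had reads in 3 libraries, all of them thyroid GFP+. Replicate 4 at 3 months held 17 reads (97.2 CPM), and replicates 1 and 3 at 9 months held 2 reads each (30.7 and 23.3 CPM). Thus 81.0% of its 21 reads came from 1 library, which held 7.73% of all reads in genes. Pooled over ages, with the GFP- reads of Wif1 set to 3, the GFP+ over GFP- ratio was 7.88, and 1.87 without that library. This leaves out the counting error of the GFP+ reads. The exact 95% lower bounds were 5.86 and 0.928, so the interval without that library includes 1. Both 6-month groups had 0 reads, so the fit without a filter gave no usable value over the 3 ages. For single ages its adjusted p for Wif1 was 0.156 at 3 months and 0.758 at 9 months (edgeR).

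**Figure D2:**
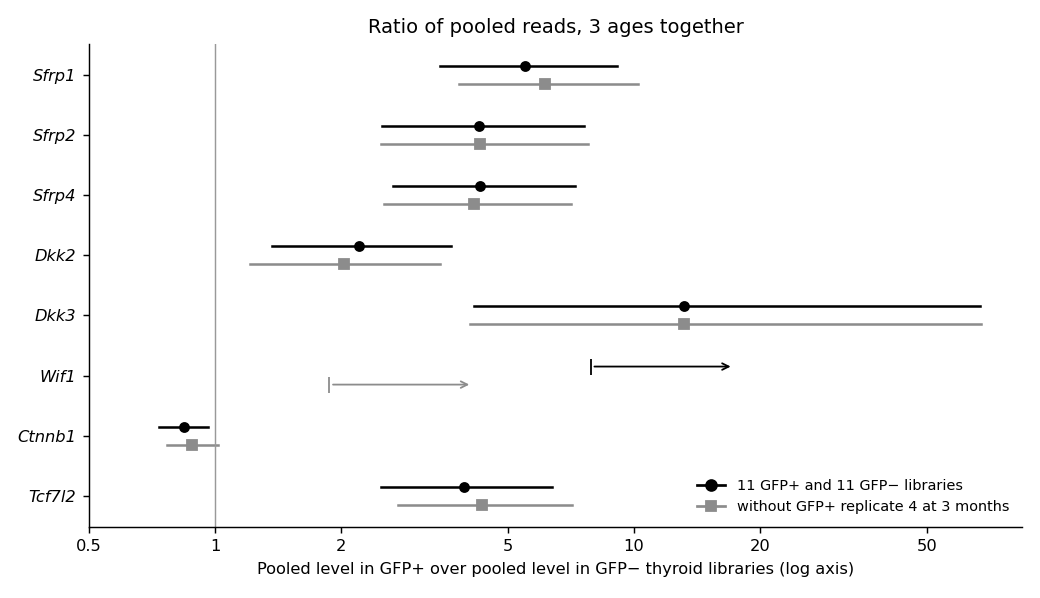
Ratio of the pooled level in GFP+ over GFP- thyroid libraries on a logarithmic horizontal axis, with 95% counting intervals, for the 8 genes from top to bottom. Circles use 11 libraries in each fraction, and squares leave out GFP+ replicate 4 at 3 months. The arrows at Wif1 start at its ratios with the GFP- reads set to 3. All members but Ctnnb1 lie above 1, and the Wif1 ratio so set is 7.88 with that library and 1.87 without it. The exact 95% lower bound for Wif1 without that library is 0.928.

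Tcf7l2, the TCF factor that pairs with β-catenin on DNA, was higher in the GFP+ fraction. At 3 months it stood at 1280, 0, 107 and 57.2 CPM in GFP+ libraries, against 10.7, 24.5, 0 and 0 CPM in GFP- libraries. At 6 months it stood at 211.6, 0, 66.5 and 0 CPM in GFP+ libraries, against 0, 206, 38.3 and 17.3 CPM in GFP- libraries. At 9 months it stood at 76.8, 153 and 128 CPM in GFP+ libraries, against 0, 7.54 and 61.4 CPM in GFP- libraries. The values of 1280 and 206 CPM came from 2 and 1 reads in shallow libraries, and the fractions were apart at 9 months alone. One deep GFP+ library, replicate 2 at 6 months with 76308 reads, had no Tcf7l2 read. The log2 fold change over ages was 1.73 (SE 0.541, adjusted p = 0.00919, edgeR), and pooled reads gave a ratio of 3.92 (2.49 to 6.38). The call did not hold without the 6-month GFP+ replicate 1 (1.42, adjusted p = 0.0725), nor in the edgeR fit without a filter (1.73, adjusted p = 0.0645).

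Ctnnb1, the gene for β-catenin, which also joins cadherins to the cytoskeleton, did not pass the test between the fractions. At 3 months it stood at 1280, 0, 966 and 360.1 CPM in GFP+ libraries, against 729, 679, 429 and 461 CPM in GFP- libraries. At 6 months it stood at 576, 642, 368 and 0 CPM in GFP+ libraries, against 469, 206, 459 and 502.5 CPM in GFP- libraries. The 9-month values were 322.5, 446.5 and 523 CPM in GFP+ libraries, against 509.9, 445 and 545 CPM in GFP- libraries. The fractions overlapped at each age. The log2 fold change was -0.40 (95% interval -1.14 to 0.35, adjusted p = 0.576, edgeR), so an increase above 0.35 or a decrease beyond 1.14 on the log2 scale lies outside the interval. Pooled reads gave a ratio of 0.841 (0.736 to 0.960), and 0.882 (0.767 to 1.01) without GFP+ replicate 4 at 3 months.

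By single age, 1 of the 4 members tested was called. At 6 months Sfrp1 was higher in GFP+ libraries, in a comparison where 7.11% of all genes were called. With 24 reads in GFP+ and 1 read in GFP- libraries, the ratio was 24.1 (3.93 to 992) and the adjusted p was 0.0134 (edgeR). Leaving out GFP+ replicate 2 (adjusted p = 0.368) or GFP- replicate 3 (adjusted p = 0.184) of that age ended the call. Sfrp4 at 6 months had a log2 fold change of 2.74 (unadjusted p = 0.00758, adjusted p = 0.0833, edgeR). At 3 months no member was called, against 9.74% of all genes. The unadjusted edgeR p there was 0.0479 for Sfrp1 and 0.0260 for Tcf7l2, the 2 members under 0.05. The 9-month comparison called no member either, against 1.89% of all genes. There the unadjusted p of Sfrp1 in edgeR was 0.0314, and the other 3 members tested were above 0.05. DESeq2 called none of the 4 at 3 months. At 6 and 9 months it gave no adjusted p for Sfrp1 or Sfrp4 and did not call Tcf7l2 or Ctnnb1. Its log2 fold change for Sfrp1 at 6 months was 3.73, against 3.99 in edgeR. At 9 months, in a count added after the values were seen, 5 of the 8 members (Sfrp1, Sfrp2, Dkk2, Dkk3 and Tcf7l2) had every GFP+ library above every GFP- library. All 5 had 0 reads in GFP- replicate 1, whose limit of 509.9 CPM lies above their GFP+ values, so the separation rests on the other 2 GFP- libraries. The same held for 6.28% of the 13415 genes with a read in these libraries and 14.8% of the 1900 genes tested.

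**Figure D3:**
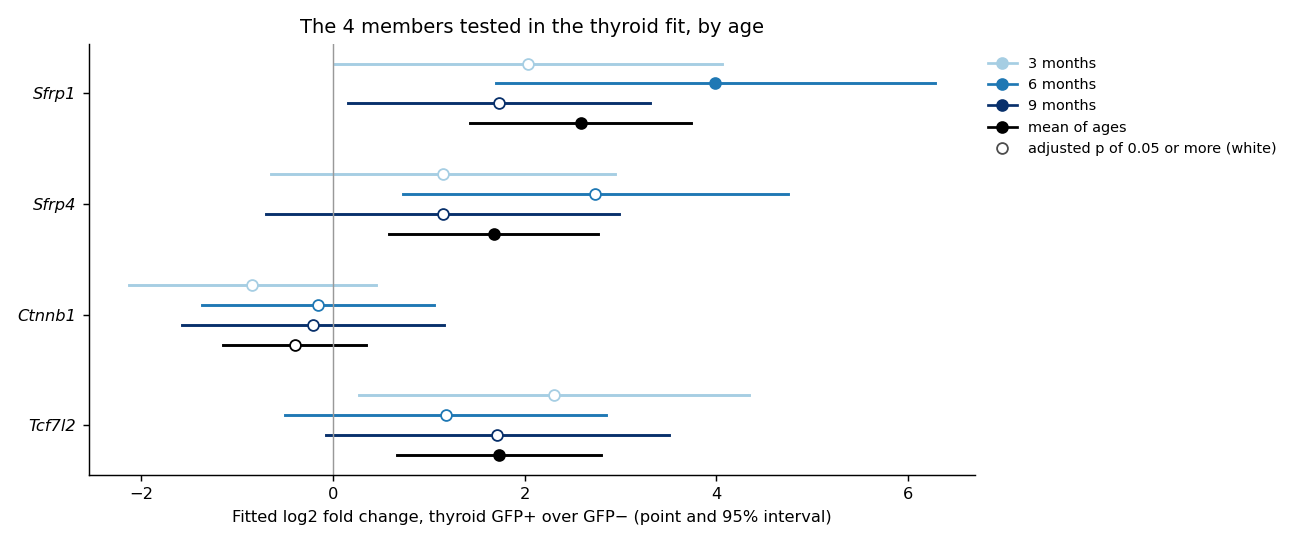
Fitted log2 fold change of thyroid GFP+ over GFP- (horizontal axis) for the 4 members tested, with 95% intervals, at 3, 6 and 9 months and as the mean of the ages. Filled points have an adjusted p under 0.05 and white points do not. Sfrp1 is filled at 6 months and for the mean (2.59), and the 4 Ctnnb1 points lie left of 0.

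Age itself moved no member past the test. Pooled by age (3, 6 and 9 months), GFP+ libraries had Sfrp1 levels of 69.6, 67.2 and 214.7 CPM, against 11.03, 2.78 and 63.3 CPM in the GFP- libraries of those ages. The test over the 3 ages gave an adjusted p of 0.622 within GFP+ libraries, where 1.58% of genes were called, and of 0.130 within GFP- libraries, where 1.53% were called. The unadjusted p of Sfrp1 was 0.0417 within GFP+ and 0.00512 within GFP- libraries, and Sfrp4, Tcf7l2 and Ctnnb1 were above 0.05 in both fractions. Pooled Tcf7l2 levels by age were 69.6, 86.7 and 130.7 CPM in GFP+ libraries, against 13.8, 30.6 and 33.5 CPM in the GFP- libraries. Summed over the 6 inhibitors, the GFP+ libraries of the 3 ages pooled to 443, 260.2 and 579 CPM, against 88.2, 33.4 and 179 CPM for GFP-. At 3 months GFP+ replicate 4 held 81 of the 89 inhibitor reads, and the median over libraries was 214.6 CPM. That replicate held 174957 of the 201054 reads in genes of its group, so pooled 3-month GFP+ levels rest mainly on it. Pooled Dkk3 levels by age were 34.8, 16.8 and 68.5 CPM in GFP+ libraries, against 2.76, 0 and 7.44 CPM in GFP- libraries. The 3-month GFP+ value came from 7 reads of 1 library, and the means over libraries were 10 CPM at 3 months and 17.7 CPM at 6 months, so these ages have no stable order. The difference between the fractions was not found to vary with age: none of the 4 members was called, against 0.158% of all genes, and the lowest unadjusted p was 0.271 (Sfrp1).

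The salivary gland libraries held almost none of the inhibitors. The GFP+ libraries had 0 reads of all 6 together, with a counting limit of 40.1 CPM on the pooled 92013 reads. Most of these reads in genes were of replicate 3 (79225), beside 993 in replicate 1 and 11795 in replicate 2. A gene with 0 reads could lie anywhere below 3021 CPM in replicate 1 and below 254 CPM in replicate 2. The GFP- libraries had 5 reads of the inhibitors (16.6 CPM, 5.39 to 38.7). Ctnnb1 stood at 0, 0 and 101.0 CPM in salivary GFP+ libraries, against 131, 27.7 and 175 CPM in salivary GFP- libraries. Tcf7l2 had 0 reads in salivary GFP+ libraries, against 0, 27.7 and 10.6 CPM in salivary GFP- libraries. Neither tested member, Sfrp1 or Ctnnb1, was called between the salivary fractions (adjusted p = 0.802 and 0.751, edgeR). No gene of the 974 tested was called there by edgeR (0%).

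Replicate 3 held 79225 of the 92013 salivary GFP+ reads in genes, so gland comparisons of pooled GFP+ reads rest mainly on that library. Between the glands at 9 months, Sfrp1 had 69 pooled reads in thyroid and 0 in salivary GFP+ libraries. The exact 95% lower bound on the thyroid over salivary ratio was 5.21. The fit gave an adjusted p of 0.0604 (edgeR), in a comparison where 14.4% of genes were called. In GFP- libraries 17 thyroid reads stood against 1 salivary read, a ratio of 19.1 (2.99 to 797), with an adjusted p of 0.324, where 14.2% of genes were called. Pooled reads of Ctnnb1 gave a thyroid over salivary ratio of 5.08 (2.51 to 12) in GFP+ and 3.39 (2.39 to 4.88) in GFP- libraries. By the fit Ctnnb1 had an adjusted p of 0.674 in GFP+ and 0.951 in GFP- libraries (edgeR). Against 0 salivary GFP+ reads, the exact 95% lower bound on this ratio was 3.12 for Tcf7l2 (42 thyroid GFP+ reads) and 2.73 for Sfrp2 (37 reads). It was 2.58 for Sfrp4 (35 reads), 1.57 for Dkk3 (22 reads) and 1.34 for Dkk2 (19 reads). The scaling bears on these values: under DESeq2 size factors the all-gene median shifted by 1.66 (GFP+) and 1.43 (GFP-) on the log2 scale, and both members were then called in each fraction. Relative to that median, Sfrp1 was 4.37 higher in GFP+ and 1.74 higher in GFP- libraries, and Ctnnb1 was at -0.44 and 0.03. No member was called for an unequal GFP difference between the glands, where edgeR called 0% of genes. The edgeR test of that difference, with unadjusted values, gave 0.318 for Sfrp1 and 0.663 for Ctnnb1.

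Markers of fibroblasts were also higher in thyroid GFP+ libraries. Of 20 fibroblast genes, 19 were tested in the thyroid fit and all 19 were higher in GFP+ libraries, with a median log2 fold change of 2.05. Their summed level was 24040 CPM in pooled GFP+ libraries (3945 to 31200 by library), against 5245 CPM in GFP- libraries (1931 to 13380), and all 20 were detected in both. By age (3, 6 and 9 months) these genes pooled to 25350, 21460 and 26090 CPM in thyroid GFP+ libraries. The thyroid GFP- libraries of those ages pooled to 3090, 2681 and 11580 CPM. Pooled salivary libraries held these genes at 315.2 CPM (GFP+) and 385 CPM (GFP-). A scale of reads per 1000 reads of these fibroblast genes was added after the values were seen. On it, Sfrp1 had 5.06 reads in GFP+ (4.15 to 6.11) and 4.23 reads in GFP- libraries (2.65 to 6.41). Sfrp2 had 3.21 reads in GFP+ (2.50 to 4.08) and 3.46 in GFP- libraries (2.05 to 5.47). Sfrp4 had 3.97 in GFP+ (3.17 to 4.92) and 4.23 in GFP- libraries (2.65 to 6.41). Ctnnb1 had 18.7 in GFP+ (16.9 to 20.6) and 101.8 in GFP- libraries (93.3 to 110.9). On this scale the fractions overlapped in their intervals for all 3 Sfrp genes, Dkk3, Wif1 and Tcf7l2. They did not overlap for Dkk2 and Ctnnb1, both lower in GFP+ libraries. Dkk2 had 2.51 in GFP+ (1.88 to 3.28) and 5.20 in GFP- libraries (3.42 to 7.56), and Dkk3 had 1.66 in GFP+ (1.15 to 2.30) and 0.577 in GFP- libraries (0.119 to 1.69). Wif1 had 0.993 in GFP+ (0.615 to 1.52) and 0 in GFP- libraries (up to 0.7099), and Tcf7l2 had 4.11 in GFP+ (3.30 to 5.07) and 4.81 in GFP- libraries (3.11 to 7.10). Other cell types also differed: 10 of 11 endothelial genes tested were lower in GFP+ libraries (median -3.31), 3 of 5 genes of pericytes and smooth muscle were higher, and 3 of 5 thyroid follicular, 3 of 3 C cell and 4 of 4 parathyroid genes were lower. By age, pericyte and smooth muscle genes pooled to 2348, 1377 and 644.2 CPM in GFP+, against 355.6, 267.3 and 762.9 CPM in GFP- libraries. The 2 salivary gland genes past the filter, Dcpp2 and Dcpp3, had ages with 0 reads in both fractions and gave no usable value. No immune or Schwann cell gene passed the filter. Of 10 immune genes 2 had reads in thyroid GFP+ libraries (49 reads) and 3 in thyroid GFP- libraries (37 reads), and Ptprc, Cd68, Cd3e and Cd79a were among those at 0 in both. GFP+ replicate 4 at 3 months, the library that held most Wif1 reads and the 3-month GFP+ reads of Sfrp4 and Dkk3, held 46 of those 49 immune reads (262.9 CPM). The same library held 208 (1189 CPM) of the 267 reads of 12 salivary acinar and duct genes in thyroid GFP+ libraries. GFP- replicate 4 at 3 months held 83 reads of these salivary genes (1064 CPM). The part of these markers in the members' differences was not tested.

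**Figure D4:**
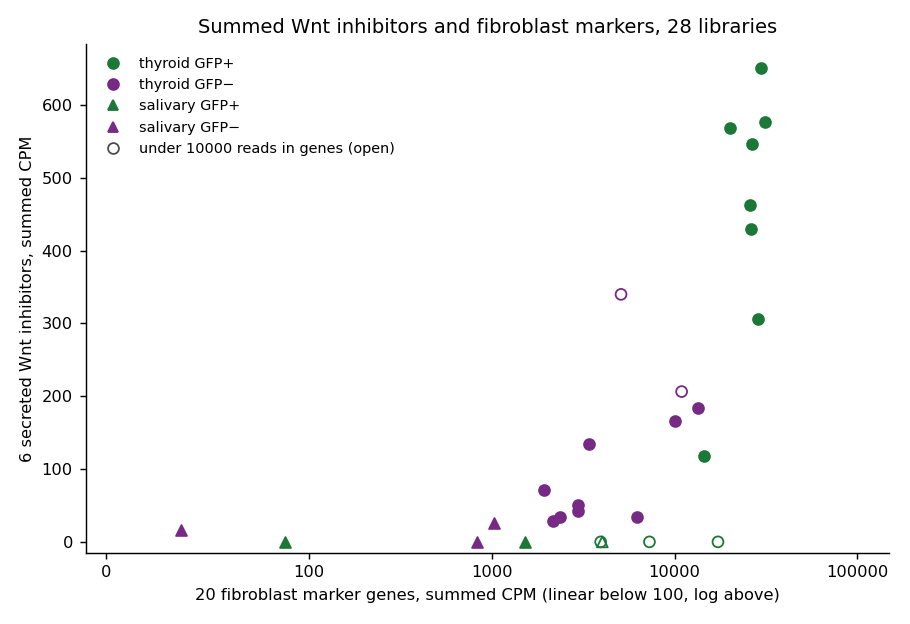
Summed level of the 6 secreted Wnt inhibitors (vertical axis, CPM) against the summed level of 20 fibroblast marker genes (horizontal axis, CPM, linear below 100 and logarithmic above) in the 28 libraries. Circles are thyroid and triangles salivary gland, and open symbols are libraries under 10000 reads in genes. The 9-month thyroid GFP+ libraries lie at 546 to 651 CPM of inhibitors and the salivary GFP+ libraries at 0.

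Among genes with the most similar pattern over the 17 thyroid libraries with at least 10000 reads, Sfrp1 came closest to Thy1 (Pearson r = 0.878), Laptm4a (0.867) and Col14a1 (0.858). Thy1 is a surface marker of fibroblasts and Col14a1 a fibril-associated collagen. Sfrp4 was closest to Sema3c (0.843), Bicc1 (0.826) and Islr (0.821). Tcf7l2 was closest to Vcan (0.772), a matrix proteoglycan, P4ha1 (0.760), a collagen prolyl hydroxylase subunit, and Psmd2 (0.756), a proteasome subunit. Ctnnb1 was closest to the kinase gene Mapk3 (0.809), Xiap (0.779), an inhibitor of caspases, and Oaz2 (0.750). The members themselves were less alike: r was 0.365 between Sfrp1 and Sfrp4, 0.415 between Sfrp1 and Tcf7l2, and -0.339 between Sfrp1 and Ctnnb1. These points share libraries, depth and scaling, and the ranking depended on the shallow libraries. Over all 22 thyroid libraries Thy1 (0.913 with Sfrp1) and Psmd2 (0.854 with Tcf7l2) ranked 1, and the other 10 genes named here ranked between 9 (Col14a1) and 363 (Laptm4a) of 1871.

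Few other genes of the pathway could be tested. Of 120 other Wnt pathway genes in 7 lists, 96 had reads and 18 were tested. Of these 18, 2 were higher and 2 lower in GFP+ libraries, where 20.2% of all genes were called, and the median log2 fold change was 0.00, beside -0.08 for all genes. Among other secreted inhibitors, 1 of 11 was tested: Igfbp4, an IGF-binding protein that can also block Wnt receptors, was higher (1.26, SE 0.423, adjusted p = 0.0174, edgeR). That call did not hold without the 3-month GFP+ replicate 4, the 6-month GFP+ replicate 2, the 9-month GFP+ replicates 2 or 3, or the 9-month GFP- replicates 1 or 2 (adjusted p = 0.0534 to 0.111), nor with no filter (adjusted p = 0.249). Among ligand and export genes 1 of 26 was tested, and Wls, which carries Wnt proteins to the surface, had 0.11 (adjusted p = 0.920). Of 25 receptor genes 3 were tested and none called, with Ryk, a Wnt co-receptor, at 0.35 and Fzd4, a Frizzled receptor, at -0.87 (adjusted p = 0.650 and 0.151).

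In the destruction complex 4 of 17 genes were tested and none called. The kinase genes Csnk1a1 and Gsk3b, which phosphorylate β-catenin, had log2 fold changes of -0.02 and -0.25 (adjusted p = 0.988 and 0.792, edgeR), and both changed sign with DESeq2 size factors. Of 17 nuclear partners 3 were tested, and Ctnnbip1, which blocks β-catenin from TCF factors, was lower (-1.41, SE 0.475, adjusted p = 0.0176). Ctnnbip1 stood at 0.31 without the 9-month GFP- replicate 2, and its call did not hold without the 6-month GFP- replicate 1 or the 9-month GFP+ replicates 2 or 3 (adjusted p = 0.0625 to 0.113). It also did not hold with DESeq2 size factors (0.0920), DESeq2 (0.417), no filter (0.224) or without libraries under 10000 reads (0.109), each an adjusted p. Of 9 adhesion partners 3 were tested, and Cdh1, the epithelial cadherin that binds β-catenin, was lower (-1.07, SE 0.395, adjusted p = 0.0349). The Cdh1 call did not hold without any 1 of 8 libraries: GFP- replicate 4 and GFP+ replicate 3 of 3 months, GFP- replicate 3 and GFP+ replicate 2 of 6 months, and replicates 2 and 3 of both fractions of 9 months (adjusted p = 0.0531 to 0.211). Nor did it hold with DESeq2 size factors (0.111), DESeq2 (0.549), no filter (0.405), all 28 libraries in one fit (0.0824) or without ribosomal RNA rows (0.0563), each an adjusted p. Of 16 target genes 3 were tested, and Cd44, a hyaluronan receptor and known Wnt target, was higher (1.65, SE 0.420, adjusted p = 0.000839). Without GFP+ replicate 4 at 3 months Cd44 lost its call (0.89, adjusted p = 0.452).

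**Figure D5:**
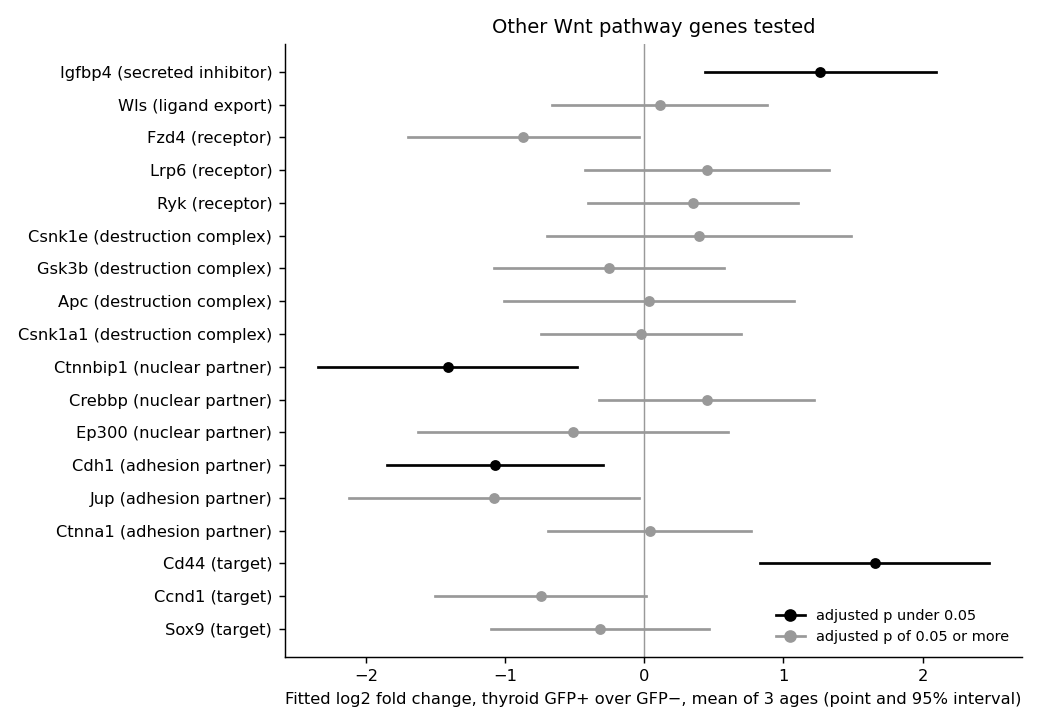
Fitted log2 fold change of thyroid GFP+ over GFP- averaged over the 3 ages (horizontal axis) with 95% intervals, for the 18 other Wnt pathway genes tested. Black points have an adjusted p under 0.05: Igfbp4 (1.26) and Cd44 (1.65) to the right, Ctnnbip1 (-1.41) and Cdh1 (-1.07) to the left.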

How the data were processed

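Read counts per gene were used as deposited, with no normalization in the count tables. Per the labels' protocols, RNA was taken from a column kit with DNase I treatment and made into libraries with a 3′ mRNA kit. Per the submitters' processing notes, bcl2fastq was used and the build was mm9. The aligner, the counting program and the annotation are not given in the sources used here, so strand use in counting is unknown. Symbols came from GENCODE vM21, where 47224 of 47643 identifiers matched. Sfrp2 and Ctnnb1 overlap antisense genes, which had 1 and 3 reads in all libraries. Promoters are from RefSeq GRCm38.p6, another build than mm9, and no file coordinates were used.

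Summary rows were left out of library sizes; no-feature reads made up 13.3 to 85.8% of a library. Ribosomal RNA rows held 25.1 to 63.8% of reads in genes by a list widened after seeing the data, and 7.12 to 50.5% by the first list. No 2 libraries were identical among 36 pairs within groups. Chi-square per degree of freedom was at least 2.43 over genes with expected counts of at least 5, a rule adopted after a first one, on summed counts over 9, had given 1.07 at the lowest, in pairs with the library of 507 reads.

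edgeR 4.0.16 in R 4.3.3 was run with TMM scaling, filterByExpr (minimum count 10, total 15) and robust quasi-likelihood tests at an adjusted p of 0.05. There were 2 fits, of the 22 thyroid libraries (1900 genes) and of the 12 libraries at 9 months (974 genes). DESeq2 1.42.0 was an alternative. The fits were also run on simulated counts with the same spread for all genes. That run is not used to judge any result here. Likeness used log2 CPM with a prior count of 2. No label says that replicates are separate animals. The p-values therefore cover the spread among these libraries, which may be technical.

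The members, the gene lists and the tests were chosen with earlier results of these data known. All members are named. From each pathway list up to 4 called genes are named by adjusted p, or else the 2 tested genes of highest mean level.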

Additional observations from a re-analysis of the deposited data

Results flagged for a closer look

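In groups of 4 libraries, 28 values of member and group were checked for a library far from the other 3, and 10 were flagged. The rule's rate of about 1 in 20 holds for normal values and not for these sparse counts. A library with reads beside 3 with 0 reads is always flagged, so the number flagged cannot be set against that rate. Of these, 5 rest on 1 or 2 reads in a shallow library or on the only read of the group: Sfrp2 at 206.4 CPM and Ctnnb1 at 206.4 CPM in GFP- replicate 2 at 6 months, Tcf7l2 at 1280.0 CPM in GFP+ replicate 1 at 3 months, Sfrp1 at 8.66 CPM in GFP- replicate 4 at 6 months, and Dkk3 at 12.8 CPM in GFP- replicate 4 at 3 months. GFP+ replicate 4 at 3 months stood apart for Sfrp4 (108.6 CPM, 19 reads), Dkk3 (40.0 CPM, 7 reads) and Wif1 (97.2 CPM, 17 reads), while the other 3 libraries of that group had 0 reads of each. Dkk3 stood at 65.5 CPM (5 reads) in GFP+ replicate 2 at 6 months, and Dkk2 at 67.3 CPM (11 reads) in GFP- replicate 2 at 3 months.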

How the results depend on the processing

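Over the 3 ages 3 members were called, and 0 with the stricter filter, which kept 1 member; leaving out a library gave 1 to 3. Sfrp1 kept its call in every fit that tested it. At 6 months 1 was called, Sfrp1, and 0 with no filter or the pair block (below). The count was also 0 with DESeq2, which gave Sfrp1 no adjusted p, and with the stricter filter or only the groups compared, which did not test Sfrp1; leaving out a library gave 0 to 1. Between glands in GFP+ libraries 0 were called, 2 with DESeq2 size factors or DESeq2, and 1 with all 28 libraries, only the groups compared, or either ribosomal RNA list left out; in GFP- libraries 0, 2 with DESeq2 size factors and 1 with DESeq2. Of 383 genes called over the 3 ages 167 were lower in GFP+ libraries, against 127 of 433 with DESeq2 size factors, 66 of 258 with DESeq2 and 61 of 89 with the stricter filter. DESeq2 size factors moved the median of all genes by 0.30; relative to it Sfrp1 stood at 2.70, Tcf7l2 at 1.84, Sfrp4 at 1.69 and Ctnnb1 at -0.31. Replicate numbers were not taken to pair libraries in the main fits, since no label says that they do. Residuals of same-numbered GFP+ and GFP- libraries correlated over 0.1 in 3 of 11 thyroid pairs and 2 of 3 salivary pairs. The highest r in thyroid was 0.351. Such a count does not settle whether the libraries are pairs. With the number as a replicate block, as planned, 359 genes and 3 members were called over the 3 ages, against 383 genes. A pair block, of same-numbered libraries of one gland and age, was added after seeing the data: it called 188 genes and 2 members, with Sfrp4 at an adjusted p of 0.103 and Dkk3, without a filter, at 0.690. It also ended the calls of Cd44 (0.136), Igfbp4 (0.309), Cdh1 (0.0848) and Ctnnbip1 (0.0999), each an adjusted p. At 6 months the blocks called 102 and 11 genes, against 135. The wider ribosomal RNA list was also added after seeing the data. Some log2 fold changes changed sign. Sfrp4 over ages ran between -0.079 and 1.999 on leaving out a library, and at 3 months between -4.11 and 1.41, both lows without GFP+ replicate 4 at 3 months, when the remaining libraries had 0 reads. Likewise Ryk ran between -1.67 and 0.49, Wls between -0.25 and 0.35 (-0.013 in the pair block), and Ctnnbip1 between -3.09 and 0.31. Csnk1a1 was 0.35 with DESeq2 size factors, 0.41 with DESeq2, 0.0068 without a filter, 0.015 with all 28 libraries, 0.011 in the number block, 0.093 without ribosomal RNA rows, and -0.22 to 0.13 on leaving out a library. Gsk3b was 0.052 with DESeq2 size factors, 0.39 with DESeq2 and 0.065 in the pair block. Ctnnb1 at 6 months was 0.0088 without a filter, 0.015 without ribosomal RNA rows and -0.35 to 0.022 on leaving out a library; at 9 months -0.36 to 0.25, and between glands in GFP- libraries -0.25 to 0.47. Sfrp1 in salivary gland was 1.23 with DESeq2 and -4.09 to 0 on leaving out a library. Other than where the remaining libraries had 0 reads, the cause was not tested. With 21 to 976 reads per member, depth limits every value of a single library.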

Other observations

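By the share of their reads that lay in thyroid GFP+ replicate 4 at 3 months, Wif1 ranked 2 among the 2465 genes with at least 10 reads there. This ranking was made after the Wif1 values were seen. Scgb3a1, a secretoglobin of gland epithelium, ranked first with 179 of 212 reads (84.4%). After Wif1 came Dmbt1 (68.9%), Inpp4b (68.0%), Lyz2 (66.7%), Sbpl (65.6%), Cytl1 (63.3%), Chad (61.1%), Lipf (58.8%), Cldn5 (58.3%), Pdlim7 (52.2%) and Myl9 (51.9%), which completes the 12 genes of highest share.

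A pair of further Wnt genes below the filter were looked at after their values were seen. Wnt5a, a ligand, had 69 reads in thyroid GFP+ (78.4 CPM) and 27 reads in thyroid GFP- libraries (27.3 CPM). Sfrp5, a relative of the 3 Sfrp members, had 0 reads in thyroid GFP+ and 11 reads in thyroid GFP- libraries (11.1 CPM). Neither gene was tested in the thyroid fit with the filter on low counts. Their values in the fit without a filter are not given here, so no call is made for either gene.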
